A study of Homo sapiens with 3 samples.

Results

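The regions described here carried H3K4me1, were narrower than 2000 bp, lay on chromosomes 1 to 22, and had no called H3K27ac region within 100 kb, measured from edge to edge. They are called remote regions below. Of 160640 narrow autosomal H3K4me1 regions in LNCaP cells, 5891 (3.67%) met the distance limit, and the whole list held 200813 H3K4me1 regions of any width and chromosome. Members were thus chosen by 2 values read from the lists, the width and the distance to H3K27ac, and neither is a finding about them. The other 154749 narrow regions served as the comparison, and of these 39838 overlapped an H3K27ac region.

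H3K4me1, monomethylation of lysine 4 of histone H3, is written largely by the KMT2C and KMT2D methyltransferases and marks enhancers. H3K27ac is written by the acetyltransferases CBP and p300 and is added at enhancers and promoters in use. An enhancer with H3K4me1 and without H3K27ac is usually described as primed or inactive, and methylation without acetylation may also remain where an enhancer has been switched off. LNCaP is an established androgen-responsive line from a lymph node metastasis of a prostate carcinoma, with an abnormal karyotype, and its enhancers are bound by the androgen receptor and FOXA1.

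The samples comprised 1 H3K27ac ChIP-seq library, 1 H3K4me1 ChIP-seq library and 1 input library without antibody, all from LNCaP cells with no treatment stated in the labels. Each ChIP library was represented by its list of called regions, and the input, the normal prostate cells and the PC3 line that the series also names were not analysed here. With 1 library per mark there was no replicate spread and no test. Intervals are exact Clopper-Pearson 95% intervals over regions, which cover counting error only and are too narrow because neighbouring regions are not independent. The lists hold no read counts, so the depth is unknown, and a place without a called H3K27ac region is not shown to lack the mark. Coordinates are hg19, counted from 1. No annotation or sequence of that build was used here, so genes were not assigned to the regions and no sequence is printed.

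Remote regions together covered 5.25 Mb, or 3.30% of the length of all narrow regions. The sequence more than 100 kb from any H3K27ac region amounted to 582 Mb, which was 20.2% of the autosomal span of 2879 Mb. The number of members followed the lists used. It was 3637 when H3K4me1 regions with a score of 0.05 or more were left out, and 15188 when only H3K27ac regions with a score of 0.01 or less counted as neighbours. The score is a value the authors deposited for each region without a name; low scores went with wide regions and were taken as the more stringent.

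The nearest H3K27ac region lay a median of 158 kb from a remote region (quartiles 120 and 232 kb). Of the 5891 regions, 1973 (33.5%) were more than 200 kb away, 300 (5.09%) more than 500 kb and 10 more than 1 Mb. On the other side the next H3K27ac region lay a median of 312 kb away, leaving out 13 regions with none on that side. Values just inside and just outside the limit lay close together. Between 100 and 110 kb there were 801 narrow regions, with a median width of 850 bp and a median of 6.10 kb to the next H3K4me1 region, and between 90 and 100 kb there were 1001, with 850 bp and 5.90 kb. The regions just inside the limit included chr2:121672051-121673100, chr5:95841051-95841600 and chr7:31694351-31695100, all 100.05 kb from H3K27ac. The 3 just outside, at exactly 100 kb, were chr2:206429101-206430100, chr6:189351-190200 and chr8:144035501-144036250.

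The member farthest from H3K27ac was chr9:8916851-8917600, 1117 kb from the nearest H3K27ac region. It was 750 bp wide with a score of 0.081, near the weak end of the list. In the same stretch, chr9:8880301-8881350 lay 1080 kb away with a score of 0.004. On chromosome 13, chr13:67804151-67805600 lay 1114 kb from H3K27ac and carried a score of 0.003, and chr13:67847801-67848550 lay 1071 kb away with 0.034. The fifth, chr8:5086701-5087450, was 1073 kb away with a score of 0.034, and its nearest H3K4me1 neighbour of any kind was 133 kb off. These 5 regions thus covered both strong and weak scores.

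The question of density was how many narrow H3K4me1 regions a given length of sequence held at each distance from H3K27ac. The density fell in every band with distance. It was 83.2 regions per Mb within 1 kb of an H3K27ac region, 52.0 at 10 to 20 kb, 28.9 at 50 to 100 kb, 18.2 at 100 to 200 kb, 10.5 at 200 to 500 kb and 1.44 beyond 500 kb. Over all remote sequence it was 10.1 per Mb, against 53.3 per Mb up to 100 kb outside H3K27ac regions, a 5.27-fold difference. Much of the emptiest sequence held no called region of either mark: 31 intervals of 1 Mb or longer, 193 Mb together, were free of both lists. Whether reads can be mapped in these intervals was not tested, so they are not shown to lack the marks. With these intervals removed, a setting chosen after seeing the data, the density was 15.0 per Mb in remote sequence and 7.46 per Mb beyond 500 kb, and the difference was 3.57-fold.

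**Figure D1:**
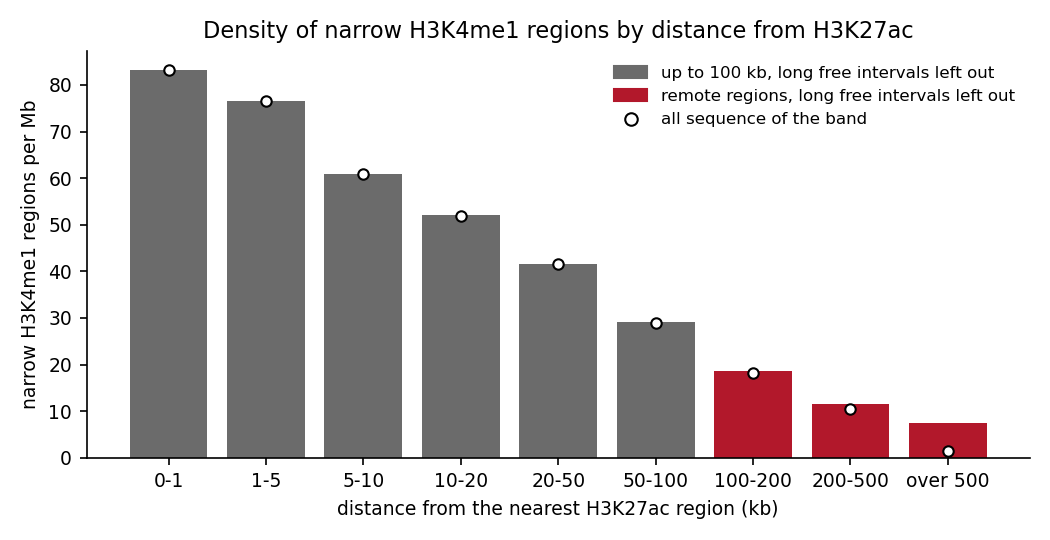
Narrow H3K4me1 regions per Mb of autosomal sequence (y axis) in bands of distance from the nearest H3K27ac region in kb (x axis). Bars leave out intervals of 1 Mb or more without a called region of either mark, open circles use all sequence, and red bars are the remote regions. The bars step down from 83.2 within 1 kb to 7.46 beyond 500 kb, where the circle stands at 1.44.

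H3K4me1 regions of 2000 bp or more were few at this distance. Of the 6200 autosomal H3K4me1 regions of any width more than 100 kb from H3K27ac, 309 (4.98%, interval 4.46% to 5.56%) were 2000 bp or wider, against 36751 of 191500 (19.2%) nearer to or overlapping H3K27ac. Most of that contrast lay between regions that overlapped H3K27ac and those that did not. Among non-overlapping regions, the wide share was 4.58% within 1 kb of H3K27ac, between 6.57% and 7.06% in the bands from 1 to 100 kb, 5.45% at 100 to 200 kb, 4.45% at 200 to 500 kb and 1.64% beyond 500 kb.

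Remote regions were narrow even below the width limit. Their median width was 850 bp (quartiles 650 and 1050 bp), against 950 bp (700 and 1200 bp) for the other narrow regions. The narrowest possible width in the list, 550 bp, was that of 771 remote regions (13.1%) and of 10.0% of the others, whereas 7.13% of remote and 12.9% of other regions measured 1500 bp or more. Remoteness accordingly became rarer with width. It applied to 4.74% of narrow regions at 550 bp (interval 4.42% to 5.08%), 4.16% at 800 to 950 bp and 2.06% at 1500 to 1950 bp (1.87% to 2.27%).

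The difference in width separated regions outside H3K27ac from those inside it, more than remote from near. The 114911 other narrow regions that did not overlap H3K27ac had the same median and quartiles as the remote ones, 850, 650 and 1050 bp, while those that overlapped it had a median of 1150 bp (950 and 1500 bp). Within the non-overlapping regions the mean width moved little with distance. It was 917 bp within 1 kb, 918 bp at 20 to 50 kb, 904 bp at 100 to 200 kb, 867 bp at 200 to 500 kb and 854 bp beyond 500 kb.

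At first sight remote regions also had weaker scores. Scores of 0.05 or more were carried by 2254 of them (38.3%, interval 37.0% to 39.5%), against 29.3% of the other narrow regions. Scores of 0.003 or less were carried by 440 (7.47%, 6.81% to 8.17%), against 14.2%. The score depends on width, and when the other regions were weighted to the widths of the remote ones, these shares were 37.5% and 8.55%. The remaining difference at the weak end was 0.785 percentage points, inside the counting interval of the remote share. At scores of 0.003 or less it was -1.08 points, and the weighted share lay above the interval of the remote share. At equal width the median score was 0.034 in both groups.

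At the strong end, the shares of the other regions differed by overlap with H3K27ac. Weighted to equal width, 10.8% of narrow regions overlapping H3K27ac had a score of 0.003 or less, against 6.64% of the others outside H3K27ac and 7.47% of remote regions. None of the narrow regions under 1000 bp had so low a score. At 1000 to 1150 bp it was carried by 8.62% of remote regions (6.99% to 10.5%), by 5.14% of other regions outside H3K27ac and by 14.6% of those overlapping it. At 1200 to 1450 bp these shares were 38.1% (33.6% to 42.7%), 33.3% and 57.5%, and at 1500 to 1950 bp they were 42.4% (37.6% to 47.3%), 44.4% and 64.5%. Remote regions thus lay above other regions outside H3K27ac in the first and second of these classes and below them in the last, and below the overlapping regions in each. For scores of 0.05 or more, the share was 68.2% of remote regions (66.0% to 70.3%) against 64.4% of other regions outside H3K27ac at 600 to 750 bp. In the other 5 width classes it was lower in remote regions, with 96.4% against 97.0% at 550 bp, 18.2% against 18.8% at 800 to 950 bp, and at most 2.59% against 3.46% above that. In each of these 5 classes the share of the other regions lay inside the interval of the remote share. Read by distance and at equal width, the share with a score of 0.05 or more was 37.4% within 1 kb, 37.7% at 50 to 100 kb, 38.5% at 100 to 200 kb, 37.6% at 200 to 500 kb and 40.8% among the 300 regions beyond 500 kb.

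**Figure D2:**
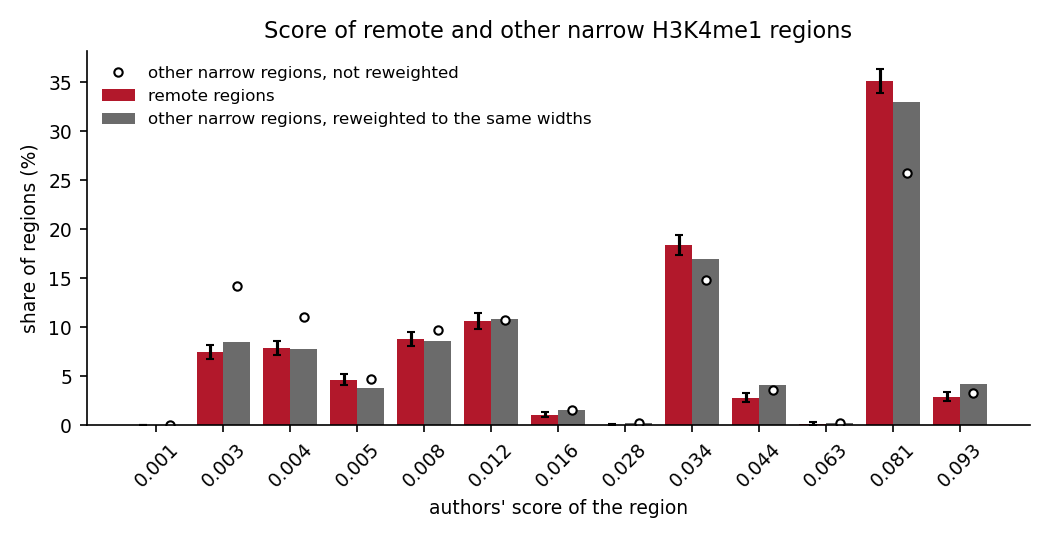
Share of regions in percent (y axis) at each value of the authors' score (x axis), with low scores as the more stringent. Red bars are remote regions with exact 95% intervals, grey bars the other narrow regions weighted to the same widths, and circles the same without weighting; at 0.081 the remote share is 35.2%, the weighted share 33.0% and the unweighted share 25.8%.

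Remote regions of high stringency were present all the same. The 5 named by lowest score and then greatest width all measured 1950 bp, the widest that the rule allows and shared by 18 members, and all had a score of 0.003. At chr6:69344351-69346300 the nearest H3K27ac region lay 767 kb away, and the nearest other H3K4me1 region 307 kb. At chr7:114561901-114563850 these distances were 726 and 162 kb, and at chr18:25756551-25758500 they were 659 and 444 kb. These 3 are also the widest members by the naming rule, and their stretches held 4, 14 and 3 remote regions. The other two had a nearer H3K4me1 neighbour. At chr10:11008201-11010150, in a stretch with 8 members, the nearest H3K4me1 region was 44.5 kb away, and at chr5:174468751-174470700, in a stretch with 22 members, it was 3 kb away.

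Remote regions lay farther from the next H3K4me1 region than other narrow regions did. The nearest other H3K4me1 region of any width lay a median of 9.20 kb from a remote region (quartiles 2.25 and 31.95 kb). For other narrow regions weighted to the same widths the median was 1.75 kb (0.5 and 5.35 kb), and for narrow regions 50 to 100 kb from H3K27ac it was 5.05 kb. A neighbour within 1 kb was found for 15.0% of remote regions (14.1% to 15.9%), against 38.4% of the weighted others. No neighbour within 50 kb was found for 955 remote regions (16.2%), against 0.873%. The distance grew step by step away from H3K27ac, with medians of 0.450 kb within 1 kb, 3.85 kb at 20 to 50 kb, 7.25 kb at 100 to 200 kb, 12.9 kb at 200 to 500 kb and 33.0 kb beyond 500 kb.

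**Figure D3:**
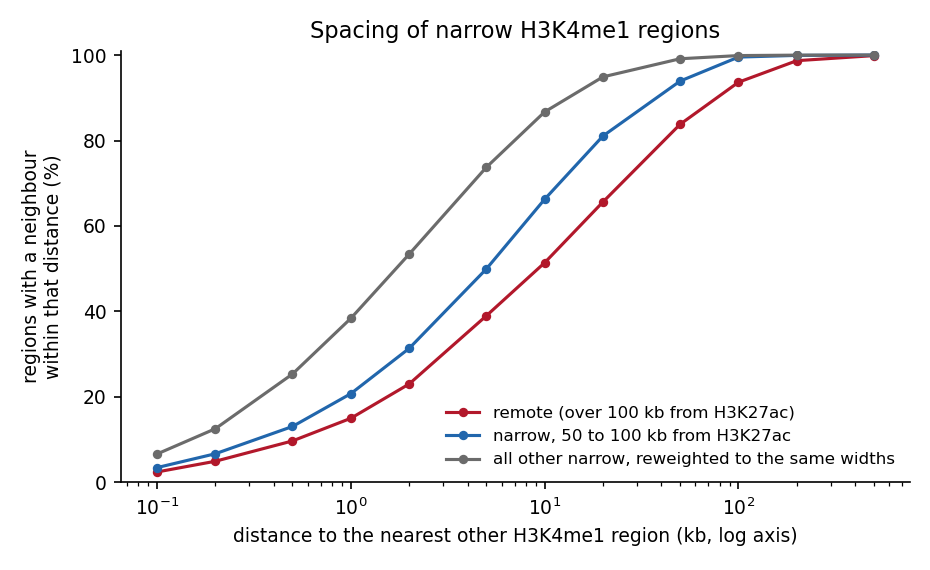
Share of regions in percent (y axis) with another H3K4me1 region within a given distance in kb (x axis, logarithmic). The red line for remote regions runs below the blue line for narrow regions 50 to 100 kb from H3K27ac and the grey line for all other narrow regions weighted to the same widths; at 10 kb the lines stand at 51.4%, 66.3% and 86.7%.

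The spacing among remote regions alone was similar to that from any H3K4me1 region. The median distance from a remote region to the nearest other remote region was 10.6 kb (quartiles 2.60 and 39.95 kb). Shared out evenly, there would be 1 remote region per 98.8 kb of remote sequence, or per 66.9 kb without the long free intervals. Any placement that is not even, random placement included, gives a median below these values. The comparison therefore does not measure clustering, and random placement was not computed. For 4912 of them (83.4%) the nearest H3K4me1 region of any kind was another remote region, which the rule favours, since a narrow neighbour in the same remote sequence is a member by definition. A region of 2000 bp or more lay within 10 kb of 7.69% of remote regions (7.02% to 8.40%), against 12.3% at 50 to 100 kb and 40.3% of the weighted others. Since wide H3K4me1 regions mostly lie in H3K27ac, the distance rule itself lowers this share.

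Chains of close regions were short. When H3K4me1 regions at most 5 kb apart were linked, 3595 remote regions (61.0%, interval 59.8% to 62.3%) stood alone, against 26.3% of the weighted others, and 18.6% belonged to chains of 3 or more, against 54.5%. Chains made up of remote regions only numbered 761, of which 26 had 5 or more regions and none had 10. Another 214 chains, with 465 remote regions, also held H3K4me1 regions outside the set. The longest chains of remote regions only were chr20:24749801-24775650, with 8 regions over 25.9 kb, and chr3:11033551-11056900, with 8 regions over 23.4 kb. H3K4me1 covered 34.2% of the former and 36.4% of the latter. The next, chr5:178746801-178764200, held 7 regions over 17.4 kb and was covered to 40.5%. Scores within the chains ran from 0.003 to 0.081, from 0.004 to 0.093 and from 0.008 to 0.081. The median of all autosomal H3K4me1 regions was 0.008, so the third chain held none below it.

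Some neighbours were nearly fused. In 38 pairs of adjacent remote regions the gap was 50 bp, the step of the coordinate grid, and in 250 pairs it was under 500 bp. The 3 such pairs farthest from H3K27ac spanned chr6:66347001-66349250, at 550 kb, chr8:122744851-122746700, at 407 kb, and chr20:59945951-59947950, at 371 kb. Merging regions within 1 kb before applying the limits gave 5115 remote regions, with a median of 13.1 kb to the next H3K4me1 region against 4.05 kb for the weighted others.

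Every autosome held remote regions, from 69 on chromosome 22 to 520 on chromosome 1. As a share of narrow regions they were most frequent on chromosome 18 (8.46%, interval 7.28% to 9.76%, 171 regions), chromosome 8 (6.45%, 5.93% to 7.01%, 518 regions) and chromosome 4 (5.66%, 5.14% to 6.22%, 405 regions). They were least frequent on chromosome 19 (1.80%, 1.43% to 2.25%, 78 regions), chromosome 15 (2.12%, 1.77% to 2.53%, 124 regions) and chromosome 17 (2.43%, 2.08% to 2.82%, 169 regions). The intervals of the upper 3 did not meet those of the lower 3, but these chromosomes were picked by this same share. The gap is therefore no test of a difference between chromosomes, and the intervals cover counting error only. With long free intervals included, the part of the span more than 100 kb from H3K27ac did not follow the same order. It was 32.4% on chromosome 18, 22.9% on 8 and 23.5% on 4, and 12.6% on 19, 26.3% on 15 and 11.4% on 17. It was largest on chromosome 13 (46.5%), where remote regions made up 5.28% of narrow regions, and next on 22 and 21 (37.5% and 37.4%), where they made up 2.97% and 2.98%, whereas on chromosome 20 it was 16.6% with a share of 5.53%.

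Per Mb of remote sequence the order was another one. With the long free intervals removed, chromosome 20 was the densest with 32.8 remote regions per Mb, followed by chromosome 17 with 26.3 and chromosome 1 with 24.9, and chromosome 13 was the sparsest with 4.64, before 18 with 7.64 and 4 with 9.65. Chromosomes dense far from H3K27ac were also dense near it, where chromosome 17 had 83.6 narrow regions per Mb and chromosome 18 had 22.1. Across the 22 autosomes Spearman's rho between both densities was 0.70, a description over chromosomes that share 1 library and differ in base composition and copy number. On all 22, density was lower in the remote part, by 2.09-fold on chromosome 20 up to 5.98-fold on chromosome 13. The copy number of LNCaP chromosomes was not corrected for, and its part in these differences was not tested.

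**Figure D4:**
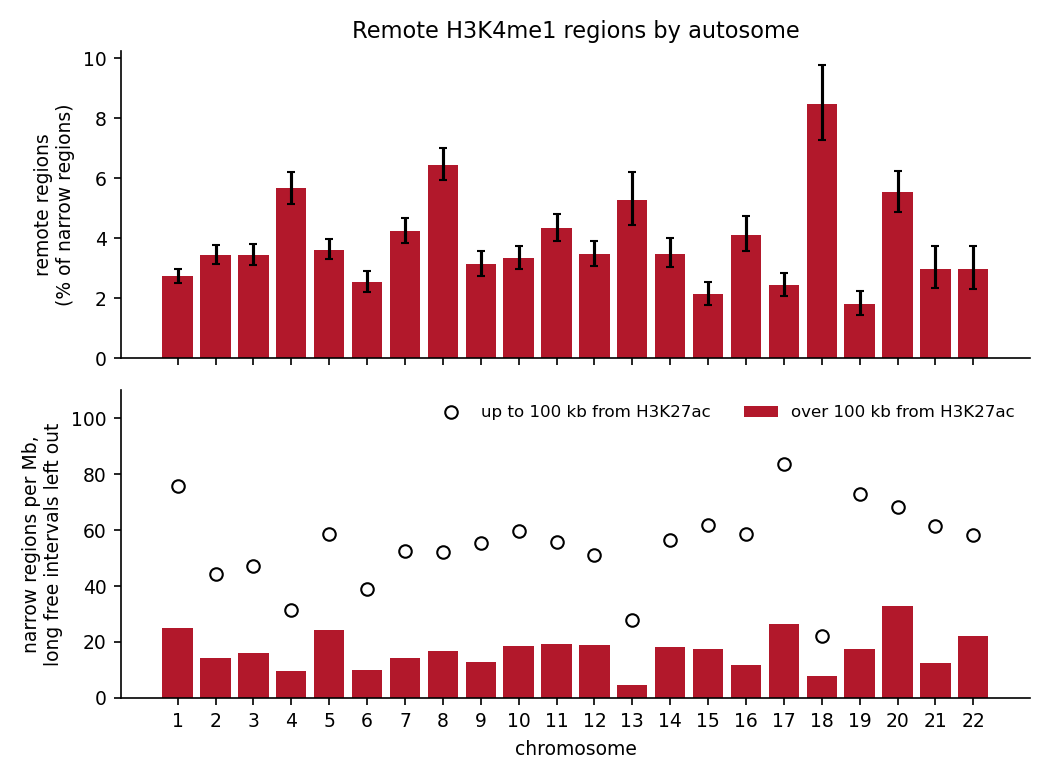
Upper panel: remote regions as a percentage of narrow H3K4me1 regions (y axis) on each autosome (x axis), with exact 95% intervals; chromosome 18 is highest at 8.46% and 19 lowest at 1.80%. Lower panel: narrow regions per Mb more than 100 kb from H3K27ac (bars) and up to 100 kb from it (circles), without long intervals free of both lists. Each bar lies below its circle.

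Width, score and spacing of remote regions also varied between chromosomes. The median width by chromosome ran from 700 to 900 bp, and the share with a score of 0.05 or more from 29.0% on chromosome 22 (18.7% to 41.2%) to 47.9% on chromosome 21 (35.9% to 60.1%), whose intervals overlap. The median distance to the next H3K4me1 region ran from 3.35 kb on chromosome 20 to 25.5 kb on chromosome 13.

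Remote regions lay more often towards chromosome ends than other narrow regions. Of the 5891, 1656 (28.1%, interval 26.97% to 29.3%) lay within 10 Mb of the end of the span of their chromosome, against 18.5% of the others, and 895 (15.2%) lay within 5 Mb, against 10.5%. The end zones of 10 Mb held 19.3% of the remote sequence. With long free intervals removed, there were 26.4 remote regions per Mb of remote sequence in these zones and 12.8 per Mb elsewhere. The distance of 10 Mb was chosen after seeing the data. Without the end zones 4235 remote regions remained, and their median distance to the next H3K4me1 region was 12.25 kb.

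The stretches between successive H3K27ac regions showed how unevenly remote regions were shared out. Of 1909 stretches long enough to contain a position more than 100 kb from H3K27ac, 1261 (66.1%) held at least 1 remote region and 648 held none. The 648 were mostly short, with a median of 39.8 kb of remote sequence against 161 kb in the others, but 159 of them had more than 100 kb of it. Together they had 186 Mb, long free intervals included, and 21 had more than 1 Mb. Stretches with a long interval free of both lists numbered 31 and held 20 remote regions. Stretches with members held a median of 3 (quartiles 1 and 6). There were 328 with a single member, and 134 with 10 or more, which held 2334 regions (39.6%). Long free intervals removed, the remote sequence was 394 Mb. Of this, stretches with a single member had 39.6 Mb, those with 10 to 19 members 59.8 Mb and those with 20 or more 25.6 Mb. The richest 211 stretches sufficed for 50% of all remote regions, a share that ranking stretches by their number of members favours.

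The 10 richest stretches held 455 remote regions, 7.72% of the total, in 0.887% of the remote sequence. The first was chr20:59575101-60619600, 1045 kb without a called H3K27ac region, in which 79 remote regions were placed at 93.5 per Mb and a median of 2.25 kb from the next H3K4me1 region. H3K4me1 regions of any width covered 114 kb, or 10.9%, of this stretch. A second stretch of the same chromosome, chr20:57674901-58348300, held 49, so that these stretches accounted for 128 of the 244 remote regions of chromosome 20 (52.5%). Without them its density was 18.9 per Mb of remote sequence. With only these 128 members taken out of both counts, its share of narrow regions was 2.71%. Other narrow regions of both stretches stayed in that share.

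Chromosome 5 held 3 of the 10. At chr5:178451451-178946300, 54 remote regions stood at 183 per Mb, the highest density of the 10. At chr5:174929851-175467850 there were 33, and at chr5:2753101-3485600 there were 32. Chromosome 1 held 3 as well. At chr1:2586601-3043000, 45 remote regions stood at 176 per Mb and H3K4me1 covered 20.3% of the stretch, the highest cover of the 10. The others were chr1:3818301-4471200, with 42, and chr1:37232551-37914550, with 35. The remaining stretches were chr4:7127951-7758950, with 53 regions, and chr8:122337801-123599400, with 33. The latter was the longest and sparsest, with 31.1 regions per Mb and no H3K4me1 region of 2000 bp or more anywhere in its 1262 kb. Of the 10 stretches, 8 began or ended within 10 Mb of a chromosome end.

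**Figure D5:**
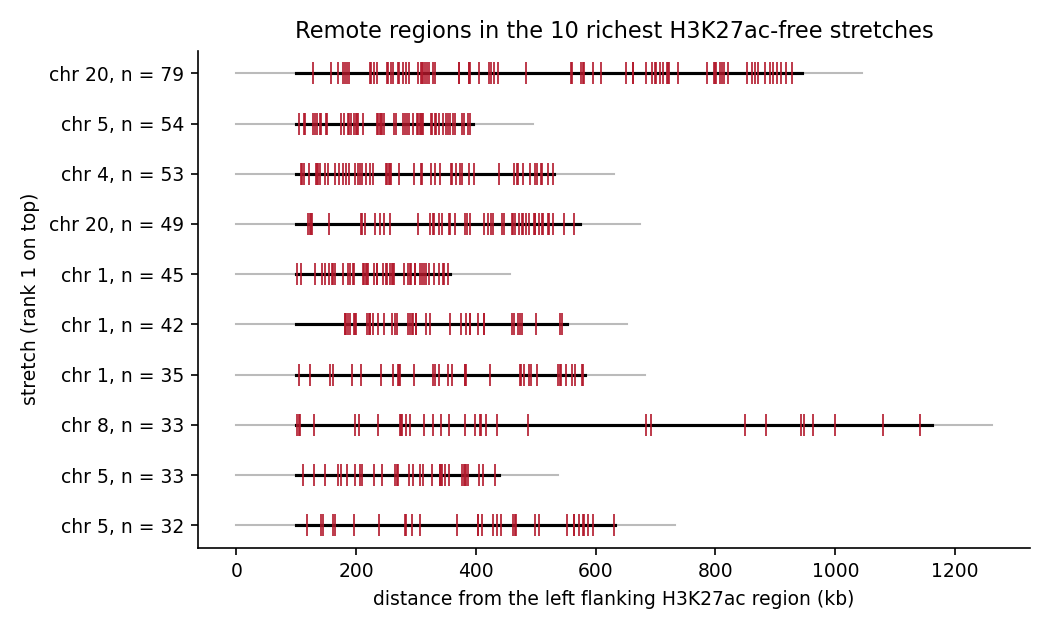
Positions of remote regions (red ticks) in the 10 stretches that held most of them, by distance in kb from the H3K27ac region on the left (x axis); each line is a stretch, labelled with its chromosome and number of remote regions, with the part more than 100 kb from both flanking H3K27ac regions in black. Ticks are spread over most of the black part in the upper rows, and the chromosome 8 stretch with 33 regions shows wide empty spans.

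In the richest stretches H3K4me1 did not thin out away from H3K27ac. In 8 of the 10, the remote part held more narrow regions per Mb than the outer 100 kb on each side. In the first there were 93.5 per Mb against 85.0, in the chromosome 5 stretch with 54 regions 183 against 100, and in the chromosome 1 stretch with 45 regions 176 against 90. The margin was slight at chr5:2753101-3485600, with 60.1 against 60. The exceptions were the chromosome 1 stretch with 35 regions, at 72.6 against 140, and that of chromosome 8, at 31.1 against 35. Choosing stretches by their number of remote regions favours this arrangement. Over all 933 stretches with at least 100 kb of remote sequence and any narrow region, long free intervals removed, the remote part held 14.0 per Mb and the outer parts 22.8, a 1.63-fold difference. The outer part was the denser in 583 of them (62.5%) and the remote part in 350.

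Score showed no steady order with the number of remote regions in a stretch. Scores of 0.05 or more were carried by 40.5% (interval 35.2% to 46.1%) of the 328 regions alone in their stretch, by 37.5% in stretches with 2 to 4, by 36.5% with 5 to 9, by 40.3% with 10 to 19 and by 39.0% (36.1% to 42.1%) of the 1040 regions in stretches with 20 or more. Between the first and the last of these classes the median width was 800 and 850 bp, and scores of 0.003 or less were carried by 7.62% and 6.83%. In the 10 richest stretches 33.0% (28.7% to 37.5%) had a score of 0.05 or more, against 38.7% (37.4% to 40.0%) in all others, with a mean width of 931 against 887 bp. The stretch at chr20:57674901-58348300 had the lowest median distance to a neighbour among the 10, 1.35 kb, and 7 of its 49 regions had a score of 0.003. In the first stretch 3 of 79 did.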

How the data were processed

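Per the labels' protocols, chromatin of formaldehyde-crosslinked LNCaP nuclei was sonicated to mostly 200 to 600 bp and sequenced as 50 bp single-end reads. The submitters' processing notes name Bowtie 0.12.8 and hg19. How regions were called, with which threshold and background, is not given in the sources used here, and those choices set the number and width of regions. The authors deposited 1 list per library with a score per region, unnamed, with no read counts; low scores go with wide regions. Starts were read as 0-based.

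Regions were taken on chromosomes 1 to 22, which leaves out X, Y and 1 mitochondrial region per list. Distances are edge to edge, and equal width was reached by weighting the other regions in 50 bp steps. Chromosome spans run to the last region of either list. Distances were tested on 400 simulated regions, of which 400 matched direct computation. No p-value was computed. The members and lists were chosen with earlier results of these data known, and the distance bands, width classes and end zones with the values in view. Regions were named by rule: the 5 farthest, 3 widest, 5 lowest-scored, 10 richest stretches, 3 longest chains, 3 closest pairs, the 3 highest and 3 lowest autosomes, and 3 on each side of the limit. The pairs with a gap of 50 bp tie, and those farthest from H3K27ac were named. Alternatives changed the limits, the scores, merging and the stretches used. Computation used scipy 1.17.1, pandas 2.3.3 and numpy 2.4.6 in Python 3.11.15, with plots by matplotlib 3.10.9.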

Additional observations from a re-analysis of the deposited data

Results flagged for a closer look

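Chromosomes X and Y fell outside the autosomal rule and still held regions that met the width and distance limits. On X there were 158, or 5.97% of 2646 narrow regions (interval 5.10% to 6.94%), with a median width of 850 bp and a median of 39.3 kb to the next H3K4me1 region, and 31.0% (23.9% to 38.9%) had a score of 0.05 or more. On Y there were 7 of 145 narrow regions (4.83%, 1.96% to 9.69%), none with a score of 0.05 or more, and the median distance to the next H3K4me1 region was 384 kb.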

How the results depend on the processing

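Of 71 alternative values, 39 stayed inside the interval of the main value, 32 moved and none reversed. This was a counting interval, except that counts were held to 1.5-fold and the medians of width and spacing to an interval from ranks. Leaving out chromosome 1, which held the most members, could not change the share on chromosome 18. Only the density difference could have been recorded as reversed. Counts, widths, spacings and shares cannot fall below 0, and the interval of the score difference already included 0. With a limit of 50 kb there were 15204 remote regions, a median spacing of 6 kb, a 3.43-fold difference in density, a share of 16.9% on chromosome 18 and 3.51% of members in the 10 richest stretches; with 200 kb these were 1973, 14.9 kb, 9.33-fold, 3.17% and 14.4%. With H3K4me1 scores under 0.05 there were 3637 regions, with a spacing of 14.3 kb and a 5.53-fold difference. Their median width was 1000 bp, against 1050 bp for the other narrow regions. With H3K27ac scores of 0.01 or less there were 15188 regions, a spacing of 6.10 kb, a 3.67-fold difference, 16.9% on chromosome 18 and 4.21% in the 10 stretches. With widths under 1000 bp, the median width was 700 bp in remote and in other narrow regions, so the difference in median width was lost. The spacing was then 10.6 kb, the difference in density 4.97-fold and the share on chromosome 18 10.3%. After merging within 1 kb, the spacing was 13.1 kb, the difference 4.12-fold, the share 10.4% and the 10 stretches held 6.51%. Leaving out stretches with long free intervals or chromosome ends gave a 3.56-fold difference, and removing the free intervals from the lengths, an added setting, gave 3.57-fold. Spacing to the nearest narrow region was 10.0 kb. Without the end zones, also added, spacing was 12.25 kb and the 10 stretches held 6.21%. Midpoint distances moved none of the values computed; density with midpoint distances was not computed, nor was the weak score with scores under 0.05. The comparison of sequence was not run, as no genome of the build was used here. No paired analysis was possible because there was a single library for every mark. Unknown depth limits what a missing H3K27ac region means.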

Other observations

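The most isolated remote regions are named here by their distance to the next H3K4me1 region. At chr9:47169251-47169850 the nearest H3K4me1 region lay 1439 kb away, at chr13:69839001-69839800 it lay 1032 kb away, and at chr6:54578901-54580000 it lay 584 kb away. Their scores were 0.034, 0.081 and 0.005. Their nearest H3K27ac regions lay 325, 236 and 769.5 kb away, and to the right of the chr9 region none followed for 19288 kb. The stretch of the chr6 region held 2 remote regions, and those of the chr9 and chr13 regions held 1 each. The named regions were chosen after their values were seen.

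Beside the intervals of 1 Mb or more that hold no called region of either mark, 121 remote regions on 17 chromosomes lay within 1 Mb of such an interval. Their median width was 800 bp, 37.2% (interval 28.6% to 46.4%) had a score of 0.05 or more and 5.79% (2.36% to 11.6%) a score of 0.003 or less, against 38.3% and 7.50% of the other 5770. Their median distance to the next H3K4me1 region was 5.50 kb, against 9.22 kb.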
